A study of Homo sapiens with 18 samples.

Results

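The genes described here encode 10 receptors with which macrophages bind, scavenge or engulf material around them: FOLR2, LYVE1, STAB1, CD163, MRC1, MSR1, MARCO, SCARB1, MERTK and AXL. They were taken by symbol from the 60623 genes of the deposited count table, where each was found once, and 10 of 10 passed the filter on low counts. RNA was sequenced from THP-1, an established human monocytic leukaemia line, in 3 engineered lines that carry an empty vector (EV), human Siglec-5 (S5) or human Siglec-14 (S14), both Siglecs being sialic acid receptors of myeloid cells. Every culture was given 100 nM of the phorbol ester PMA for 24 h, which makes THP-1 cells macrophage-like. Cells then stayed in mock medium or were kept for 48 h in 50% medium that had been conditioned by the established colorectal cancer cells SW620. Each of the 6 groups held 3 libraries, numbered 1 to 3 in their titles. The promoters driving the transgenes, and whether a line is a clone, are not stated in the labels used here. Nor do the labels state separate cultures for the replicates, and each p-value therefore reflects the spread of these libraries alone, possibly a technical one.

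Scavenger receptors are surface proteins that take up modified lipoproteins, haemoglobin complexes, glycans and dying cells without need of antibodies. FOLR2, LYVE1, STAB1, CD163, MRC1 and MERTK are also widely used to recognise tissue-resident macrophages, and several of them are raised in tumour-associated macrophages. MERTK and AXL belong to the TAM receptor tyrosine kinases, which recognise phosphatidylserine on apoptotic cells through the bridging proteins GAS6 and PROS1 and dampen inflammatory signalling.

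Library totals ranged from 15.0 to 26.05 M counts. SIGLEC14 lay between 503 and 926 CPM in the 6 S14 libraries, between 29.5 and 44.1 CPM in the 6 S5 libraries and between 13.0 and 22.7 CPM in the 6 EV libraries. The table holds SIGLEC5 under 2 identifiers. Under ENSG00000105501 it lay between 0.437 and 0.878 CPM in the S5 libraries and between 0.404 and 1.14 in the EV libraries, so S5 was not above EV. Under ENSG00000268500 it lay between 0.152 and 0.274 CPM in S5, at 0 in EV and between 0 and 0.390 in S14. Under the first identifier the S14 libraries had 0 to 0.664 CPM. These counts do not check the S5 label, and S5 here means the libraries labelled so. Of 11 macrophage and monocyte markers, 10 had a median of at least 1 CPM, and CD68, a lysosomal protein of macrophages, had 0.525 to 1.62 CPM. Reads shared with overlapping gene models may be lost in such counts, and the labels do not say how they were treated. Whether this bears on the CD68 level was not tested. The summed level of the macrophage markers was 6015 to 6263 CPM in EV mock, 5459 to 6269 in S5 mock and 4210 to 5105 in S14 mock. These markers did not move together. Mean CPM in EV mock and S14 mock was 1674 and 2136 for CSF1R, 252 and 309 for SPI1 and 668 and 678 for ITGAM. It was 615 and 206 for CD14, 524 and 105 for LYZ and 792 and 267 for FCER1G. The summed level of 7 immature myeloid markers (MPO, ELANE, PRTN3, AZU1, MYB, KIT and CD34) was 457 to 535 CPM in EV mock, 554 to 1806 in S5 mock and 99.5 to 240 in S14 mock. All 12 colorectal epithelial markers had a median under 1 CPM and 4 of them had no counts. Replicate 3 stood apart in every group: its mitochondrial mRNAs took 3.97 to 4.52% of counts, against 1.49 to 3.60% in replicates 1 and 2. Within replicates 1 and 2 this share also differed between lines in mock medium, at 1.59 and 1.49% in S14, 2.81 and 2.81% in EV and 2.50 and 2.48% in S5. In conditioned medium it was 3.11 and 2.88% in S14, 3.60 and 3.33% in EV and 3.38 and 3.30% in S5, and its part in the results was not tested.

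On the deposited TPM scale, which corrects for gene length, the class A scavenger receptor gene MSR1 had the highest median over the 18 libraries at 150 TPM (31.9 to 329). It was followed by SCARB1 at 87.0 (53.5 to 116), CD163 at 73.0 (31.0 to 167) and MERTK at 59.8 (29.1 to 108). AXL had a median of 16.3 TPM (2.30 to 27.3) and STAB1 of 11.5 (1.61 to 33.6). FOLR2 had 4.31 TPM (0.353 to 11.6) and MARCO 4.21 (0.388 to 21.4). MRC1 at 0.570 TPM (0 to 1.25) and LYVE1 at 0.335 (0 to 2.24) were the lowest. The ranges of neighbours in this order overlapped, except those of MERTK and AXL.

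**Figure D1:**
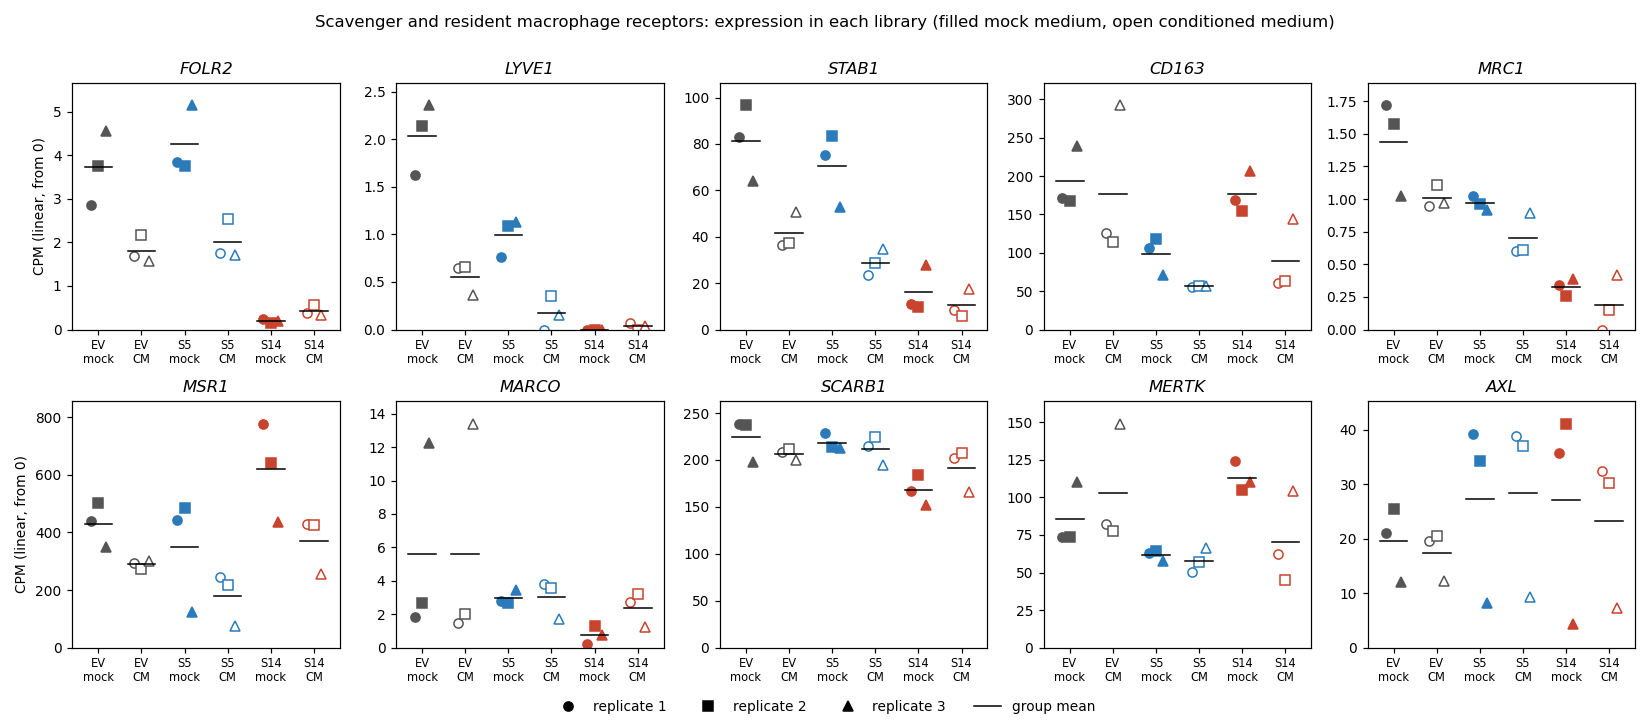
Expression of each receptor gene in each of the 18 libraries, on a linear axis of CPM that starts at 0 and differs in scale between genes. Filled symbols are mock medium, open symbols conditioned medium, the symbol shape gives the replicate number and the line is the group mean of 3 libraries. FOLR2, LYVE1, STAB1 and MRC1 were lower in S14 than in EV libraries in both media, and in AXL the triangle of replicate 3 lies lowest in every group.

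The S14 line was first compared with the EV line in mock medium, which asks how the Siglec-14 cells differed before any tumour-cell medium. Values below are CPM after TMM scaling, and a gene is called at an adjusted p under 0.05 in edgeR's quasi-likelihood test over 17851 genes. The 10 members were chosen with earlier results of these data known, so their share is set beside that of all genes without a test. In mock medium 6 of 10 members were called and all 6 were lower in S14, where 20.0% of all genes tested were called. In conditioned medium 4 of 10 were called, all lower, against 11.1% of all genes tested. The 2 lines did not overlap in CPM for 6 of 10 members in mock medium, against 36.4% of all genes tested, and for 4 of 10 in conditioned medium, against 28.8%. Lower RNA in a bulk sample cannot be told apart from fewer cells that make it.

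FOLR2 (ENSG00000165457; GRCh38 chromosome 11, 72216601 to 72221950, plus strand) encodes folate receptor beta, a lipid-anchored protein that binds folate. It had 2.86, 3.76 and 4.56 CPM in EV mock, 3.84, 3.76 and 5.14 in S5 mock, and 0.244, 0.154 and 0.195 in S14 mock, where these levels stood for only 5, 3 and 4 counts. The 3 S14 libraries lay below all EV and S5 libraries with no overlap. FOLR2 was lower in S14 than in EV by a log2 fold change of -4.20 ± 0.34 (SE, adjusted p = 1.6e-06) and lower than in S5 by -4.38 ± 0.34 (adjusted p = 1.1e-06). In conditioned medium it had 1.69, 2.17 and 1.57 CPM in EV, 1.76, 2.53 and 1.70 in S5 and 0.369, 0.552 and 0.337 in S14. The S14 line was again below both others without overlap, by -2.09 ± 0.31 against EV (adjusted p = 0.00040) and by -2.23 ± 0.31 against S5 (adjusted p = 0.00021).

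LYVE1 (ENSG00000133800; chromosome 11, 10556966 to 10611689, minus strand), a hyaluronan receptor of lymphatic endothelium and of perivascular macrophages, had 1.62, 2.13 and 2.36 CPM in EV mock and 0.759, 1.09 and 1.13 in S5 mock. No S14 mock library held a LYVE1 count. Against a floor of 3 counts per library, LYVE1 was at least 13.7-fold lower in S14 than in EV (adjusted p = 0.00012) and at least 6.68-fold lower than in S5 (adjusted p = 0.00042). In conditioned medium the 3 EV libraries held 37 LYVE1 counts, the S5 libraries 11 and the S14 libraries 2. The ratio of EV to S14 was 15.6 with a 95% interval of 4.03 to 134, which covers counting error only (adjusted p = 0.011, and 0.052 without S14 conditioned medium replicate 2). The ratio of S5 to S14 was 4.93 (1.08 to 45.8) and was not called (adjusted p = 0.19), but was without S5 conditioned medium replicate 1 (adjusted p = 0.048). Of 8 endothelial and lymphatic markers, 2 had a median of at least 1 CPM, PECAM1 at 206 (156 to 285) and VWF at 5.52 (1.08 to 15.4), 6 were under 1 CPM and 1 of these, CLDN5, had no counts.

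STAB1 (ENSG00000010327; chromosome 3, 52495338 to 52524495, plus strand) encodes stabilin-1, a multidomain receptor that clears acetylated lipoproteins and the matrix protein SPARC. It had 83.2, 96.6 and 64.2 CPM in EV mock, 75.4, 83.6 and 53.0 in S5 mock, and 10.9, 9.52 and 27.8 in S14 mock. All S14 libraries lay below all others, and S14 replicate 3 was the highest of its group. STAB1 was lower in S14 by -2.34 ± 0.42 against EV (adjusted p = 0.0011) and by -2.14 ± 0.41 against S5 (adjusted p = 0.0018). In conditioned medium it had 36.4, 37.4 and 50.6 CPM in EV, 23.5, 28.5 and 34.6 in S5, and 8.26, 5.77 and 17.4 in S14. The S14 line was lower by -1.98 ± 0.41 against EV (adjusted p = 0.0054) and by -1.46 ± 0.41 against S5 (adjusted p = 0.026). The call against S5 was lost without S5 conditioned medium replicate 2 (adjusted p = 0.060) or 3 (0.086), and without S14 replicate 1 (0.10) or 2 (0.12). Of the STAB1 exon bases 1.05% overlap NT5DC2 on the other strand.

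Promoter sequences from RefSeq (GRCh38.p14) were at hand for STAB1, CD163, MARCO and MERTK, 4 of the 10 members. The 250 bases before the RefSeq start of STAB1 are shown because it was the one of these 4 called lower in S14 than in both other lines in both media. Capitals mark matches on either strand to 4 motifs chosen with earlier results of these data known: the PU.1 core GAGGAA, the AP-1 site TGANTCA, the MAF half-site TGCTGA and the C/EBP site TTGCNNAA.
STAB1, chr3:52495088-52495337, plus strand: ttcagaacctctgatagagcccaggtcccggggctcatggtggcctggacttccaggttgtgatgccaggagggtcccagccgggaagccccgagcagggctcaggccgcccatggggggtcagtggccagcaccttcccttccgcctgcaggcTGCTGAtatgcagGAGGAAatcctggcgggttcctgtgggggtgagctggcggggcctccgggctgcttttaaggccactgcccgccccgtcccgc
The STAB1 window held 1 match to GAGGAA and 1 to TGCTGA, which do not overlap, the CD163 window held 1 to GAGGAA, 1 to TGCTGA and 1 to TTGCNNAA, and the MARCO and MERTK windows held none of the 4. By the gene positions given here, the STAB1 window ends just before the gene. The CD163, MARCO and MERTK windows, set by the RefSeq starts, lie partly inside their genes. Among 35116 promoters of the same length, 23.6% held GAGGAA, 6.57% TGANTCA, 14.0% TGCTGA and 9.05% TTGCNNAA. A match describes these letters and is not evidence of binding.

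MRC1 (ENSG00000260314; chromosome 10, 17809344 to 17911170, plus strand), the mannose receptor CD206 that binds mannosylated glycoproteins, was near the detection limit. It had 1.72, 1.58 and 1.03 CPM in EV mock, 1.03, 0.961 and 0.915 in S5 mock, and 0.342, 0.257 and 0.389 in S14 mock, the last from 7, 5 and 8 counts. The S14 libraries lay below all others. MRC1 was lower in S14 by -2.10 ± 0.50 against EV (adjusted p = 0.0077) and by -1.53 ± 0.50 against S5 (adjusted p = 0.040). In conditioned medium it was lower by -2.21 ± 0.53 against EV (adjusted p = 0.013) and by -1.70 ± 0.54 against S5 (adjusted p = 0.048), with 0, 3 and 10 counts in the S14 libraries. The EV call in conditioned medium was lost without S14 replicate 2 (adjusted p = 0.063). The S5 call in mock medium was lost without any of the 3 S5 libraries or without S14 replicate 1 or 2 (adjusted p of 0.070 to 0.14), and in conditioned medium without any of the 3 S5 libraries or without S14 replicate 1 or 2 (0.073 to 0.17).

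MARCO (ENSG00000019169; chromosome 2, 118942166 to 118994660, plus strand), a class A scavenger receptor for bacteria and inhaled particles, had 1.81, 2.65 and 12.3 CPM in EV mock, 2.77, 2.67 and 3.44 in S5 mock, and 0.244, 1.29 and 0.779 in S14 mock. EV replicate 3 was far above every other mock library, and EV and S14 did not overlap. MARCO was lower in S14 than in EV by -2.86 ± 0.89 (adjusted p = 0.033). Without EV mock replicate 3 the difference was -1.51 and was no longer called (adjusted p = 0.23). The call was also lost without S14 mock replicate 1 (0.13), 2 (0.052) or 3 (0.062). Against S5 the difference of -1.94 ± 0.88 was not called (adjusted p = 0.13). In conditioned medium, where EV had 1.47, 2.02 and 13.4 CPM, S5 3.79, 3.54 and 1.74 and S14 2.73, 3.21 and 1.22, the lines overlapped and no pair was called.

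SCARB1 (ENSG00000073060; chromosome 12, 124776856 to 124882668, minus strand) encodes the class B receptor SR-BI, which exchanges cholesterol with high-density lipoprotein. It varied least of the members. It had 239, 237 and 197 CPM in EV mock, 228, 214 and 213 in S5 mock, and 167, 184 and 152 in S14 mock. All S14 libraries lay below all others by a small margin. The differences were -0.42 ± 0.12 against EV (adjusted p = 0.023) and -0.38 ± 0.12 against S5 (adjusted p = 0.036). The EV call was lost without EV mock replicate 1 (adjusted p = 0.12) or 2 (0.11), or S14 mock replicate 1 (0.079) or 3 (0.054), and the S5 call without any of the 3 S5 libraries or S14 replicate 1 or 3 (0.080 to 0.15). In conditioned medium SCARB1 differed by -0.11 ± 0.12 against EV and -0.14 ± 0.12 against S5, and neither was called.

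**Figure D2:**
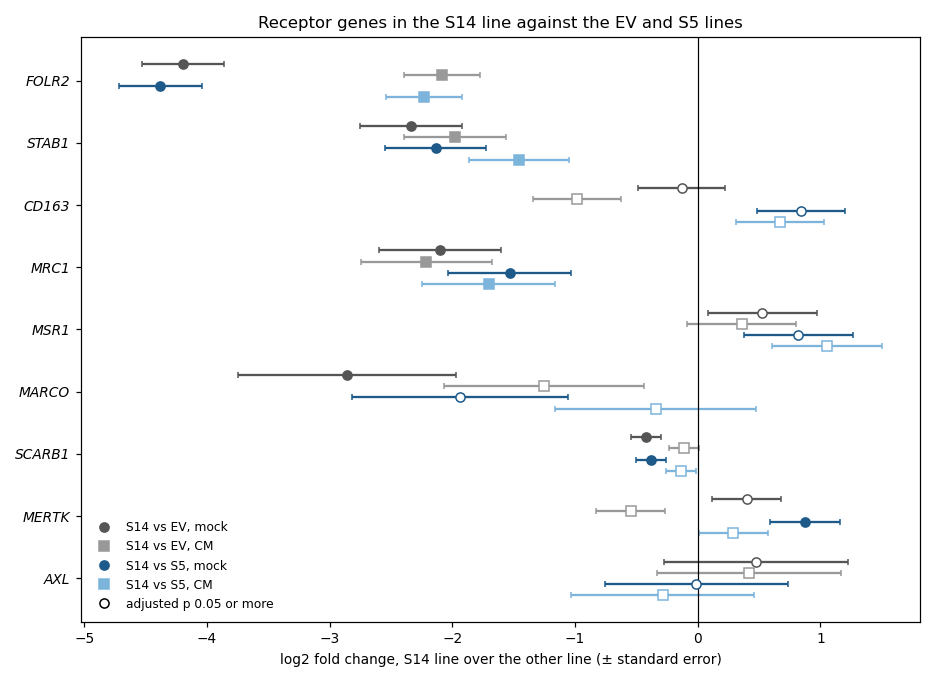
Log2 fold change of S14 over EV (grey) and of S14 over S5 (blue), with bars of 1 standard error, in mock medium (circles) and in conditioned medium (squares). Filled symbols have an adjusted p under 0.05. LYVE1 is left out because S14 mock libraries held no LYVE1 count, and FOLR2, STAB1 and MRC1 are filled in all 4 comparisons.

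CD163 (ENSG00000177575; chromosome 12, 7470813 to 7503893, minus strand), the receptor for haemoglobin bound to haptoglobin, had 172, 168 and 239 CPM in EV mock, 106, 118 and 71.3 in S5 mock and 169, 154 and 206 in S14 mock. EV and S14 overlapped, and S5 lay below both. None of these differences was called, at -0.13 ± 0.35 for S14 against EV (adjusted p = 0.83) and 0.84 ± 0.36 for S14 against S5 (adjusted p = 0.11). In conditioned medium CD163 had 126, 114 and 292 CPM in EV, 55.6, 57.2 and 56.5 in S5, and 61.1, 63.7 and 144 in S14. Replicate 3 was higher than the others in EV and S14 and not in S5. The difference of -0.98 ± 0.36 between S14 and EV was not called (adjusted p = 0.098), but with the replicate number as a block it was -0.97 (adjusted p = 0.033). Without S14 conditioned medium replicate 3 it was -1.51 (adjusted p = 0.011). That refit kept EV replicate 3, whose CD163 was 2.44 times the mean of EV replicates 1 and 2, against 2.31 times in S14. CD163L1, a related gene, overlaps 0.654% of the CD163 exon bases on the same strand.

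MSR1 (ENSG00000038945; chromosome 8, 16107878 to 16567490, minus strand) encodes the class A receptor for modified low-density lipoprotein. It had 439, 501 and 350 CPM in EV mock, 445, 485 and 124 in S5 mock, and 778, 642 and 437 in S14 mock. S5 replicate 3 was far below the other S5 libraries, and it was also the mock library with the highest sum of immature myeloid markers, 1806 CPM. MSR1 differed by 0.53 ± 0.44 between S14 and EV (adjusted p = 0.44) and by 0.82 ± 0.45 between S14 and S5 (adjusted p = 0.21). With the replicate block the difference from S5 was 0.93 in mock medium (adjusted p = 0.031) and 1.15 in conditioned medium (adjusted p = 0.016), where it was 1.05 ± 0.45 without the block (adjusted p = 0.14). In conditioned medium MSR1 had 293, 275 and 300 CPM in EV, 244, 217 and 74.2 in S5, and 429, 427 and 256 in S14. S5 lay below both other lines without overlap. S14 overlapped EV, and their difference of 0.36 ± 0.44 was not called (adjusted p = 0.70). The conditioned S5 replicate 3 also held the most immature myeloid marker RNA of that medium, 1652 CPM. In S14, replicate 3 was likewise the lowest MSR1 library in each medium. Its marker sums were the lowest of each medium, at 99.5 CPM in mock and 125 in conditioned medium. In EV mock, replicate 3 had the lowest MSR1 and the highest marker sum of its group, 535 CPM. In EV conditioned medium it had the highest MSR1 and the lowest sum, 357 CPM. The part of such cells in the MSR1 values was not tested.

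MERTK (ENSG00000153208; chromosome 2, 111898479 to 112029561, plus strand), the TAM kinase that drives engulfment of apoptotic cells, had 73.5, 73.4 and 110 CPM in EV mock, 63.1, 64.4 and 57.8 in S5 mock and 124, 105 and 110 in S14 mock. S14 lay above S5 without overlap and overlapped EV at replicate 3. MERTK was the only member called higher in S14, at 0.87 ± 0.28 against S5 in mock medium (adjusted p = 0.038). That call was lost with upper-quartile scaling (adjusted p = 0.051), without any of the 3 S5 mock libraries, and without S14 mock replicate 1 or 2 (0.070 to 0.11). Against EV the difference of 0.40 ± 0.28 was not called (adjusted p = 0.35). In conditioned medium MERTK had 82.4, 78.0 and 149 CPM in EV, 50.2, 56.8 and 66.4 in S5, and 62.6, 45.1 and 104 in S14. There S14 overlapped both other lines, and neither difference was called. They were -0.55 ± 0.28 against EV (adjusted p = 0.26) and 0.29 ± 0.28 against S5 (adjusted p = 0.58). Without S14 conditioned medium replicate 3 MERTK was lower in S14 than in EV by -0.94 (adjusted p = 0.035). That refit kept EV replicate 3, whose MERTK was 1.86 times the mean of EV replicates 1 and 2, against 1.93 times in S14.

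AXL (ENSG00000167601; chromosome 19, 41219203 to 41261766, plus strand), the TAM kinase bound by GAS6, had 20.9, 25.4 and 12.1 CPM in EV mock, 39.3, 34.3 and 8.19 in S5 mock, and 35.8, 41.1 and 4.33 in S14 mock. The lowest library of every group was replicate 3, and all lines overlapped. AXL differed by 0.47 ± 0.75 between S14 and EV (adjusted p = 0.70) and by -0.01 ± 0.74 between S14 and S5 (adjusted p = 0.99). In conditioned medium it had 19.5, 20.6 and 12.2 CPM in EV, 38.7, 36.9 and 9.29 in S5, and 32.4, 30.1 and 7.25 in S14. There AXL differed by 0.42 ± 0.75 between S14 and EV (adjusted p = 0.81) and by -0.28 ± 0.75 between S14 and S5 (adjusted p = 0.86). With replicate 3 of every group left out, AXL was higher in S14 than in EV by 0.73 in mock medium (adjusted p = 5.1e-06) and by 0.60 in conditioned medium (adjusted p = 0.00014). That fit called 55.6% of all genes in mock and 43.9% in conditioned medium. In replicate 3 itself AXL was lower in S14 than in EV in both media. An antisense gene covers 1.30% of the AXL exon bases.

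Against the S5 line, 6 of 10 members were called in mock medium, 5 lower and MERTK higher, where 21.5% of all genes tested were called. In conditioned medium 3 of 10 were called, all lower, against 13.8% of all genes tested. With the replicate block 7 were called in mock medium (38.5% of all genes) and 4 in conditioned medium (26.6%), and against EV 6 (37.4%) and 5 (23.6%). With no filter on low counts 7 of the 19 calls between lines were lost: against EV in mock medium MARCO (adjusted p = 0.10) and SCARB1 (0.090), against S5 in mock medium MRC1 (0.075), SCARB1 (0.13) and MERTK (0.054), and against S5 in conditioned medium STAB1 (0.072) and MRC1 (0.087). In a fit of only the groups compared 6 were lost: MARCO (0.074) and SCARB1 (0.074) against EV in mock medium, MRC1 against EV in conditioned medium (0.12), SCARB1 against S5 in mock medium (0.14), and STAB1 (0.081) and MRC1 (0.25) against S5 in conditioned medium. LYVE1 against EV in conditioned medium did not pass the count filter of that fit and was not tested there. RLE scaling lost MRC1 against S5 in conditioned medium (0.052). S14 and S5 did not overlap in CPM for 8 of 10 members in mock medium (33.4% of all genes) and 5 of 10 in conditioned medium (28.5%). The comparisons with S5 use the same S14 libraries as those with EV, so the values stand side by side and do not count as separate evidence. Between S5 and EV 0 of 10 members were called in mock medium and 0 of 10 in conditioned medium, and 0.0% of all genes were called in each. At an unadjusted p under 0.05 there was 1 member in mock medium (CD163), against 2.3% of all genes, and 3 in conditioned medium (LYVE1, CD163 and MERTK), against 3.04%. The S5 and EV libraries did not overlap for 3 of 10 members in mock medium (8.31% of all genes) and 6 of 10 in conditioned medium (9.08%). DESeq2 called 0 of the 10 in mock medium and 1 in conditioned medium, CD163, at -1.66 (adjusted p = 0.027). The same CD163 difference was -1.65 ± 0.36 in edgeR (adjusted p = 0.81), and its libraries did not overlap, with S5 at 55.6 to 57.2 CPM and EV at 114 to 292.

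The response to SW620-conditioned medium was then compared within each line. No member was called in EV, S5 or S14 cells, where 0.0056%, 0.0056% and 0.0504% of all genes tested were called, and DESeq2 called 0 of the 10 in each line. At an unadjusted p under 0.05 there were 3 members in EV (FOLR2, LYVE1 and STAB1), against 1.5% of all genes. There were 5 in S5 (FOLR2, LYVE1, STAB1, CD163 and MSR1), against 1.94%, and 3 in S14 (FOLR2, CD163 and MERTK), against 16.7%. The 2 media did not overlap in CPM for 4 of 10 members in EV (8.59% of all genes), 5 in S5 (6.27%) and 4 in S14 (15.4%).

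FOLR2 had lower values in conditioned than in mock medium in every same-numbered pair of EV and S5 libraries, at -1.05 ± 0.27 and -1.09 ± 0.27 (adjusted p of 1 in both). In S14 the 3 pairs went the other way in CPM, at 1.06 ± 0.37 (adjusted p = 0.24), from a level of at most 5 counts a library. S14 replicate 1 held 5 FOLR2 counts in both media. The difference between the responses of S14 and EV was 2.11 ± 0.46 and was not called (adjusted p = 0.83). LYVE1 had -1.87 ± 0.55 in EV and -2.50 ± 0.64 in S5, and in S14 it stood at 0 counts in mock and 2 in conditioned medium.

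STAB1 values were lower in conditioned medium in 3 of 3 pairs of every line, at -0.97 ± 0.40 in EV, -1.29 ± 0.40 in S5 and -0.61 ± 0.41 in S14 (adjusted p of 1, 1 and 0.49). In EV the mock range of 64.2 to 96.6 CPM and the conditioned range of 36.4 to 50.6 CPM did not overlap. MSR1 values were lower at -0.57 ± 0.44 in EV, -0.98 ± 0.45 in S5 and -0.74 ± 0.44 in S14 (adjusted p of 1, 1 and 0.43). MRC1 had -0.51 ± 0.45, -0.45 ± 0.47 and -0.62 ± 0.58, and none was called.

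CD163 had -0.98 ± 0.36 in S14 (adjusted p = 0.18), with 154 to 206 CPM in mock and 61.1 to 144 in conditioned medium. With the replicate block this was -1.05 (adjusted p = 0.045), and without S14 conditioned medium replicate 3 it was -1.50 (adjusted p = 0.017). MERTK in S14 had -0.68 ± 0.28 (adjusted p = 0.24), with the block -0.75 (adjusted p = 0.035) and without the same library -1.08 (adjusted p = 0.027). The refits without that library kept S14 mock replicate 3. With the block 11.0% of all genes were called in this comparison. In EV, MERTK had 0.27 ± 0.28 and CD163 -0.12 ± 0.35, and in S5 they had -0.10 ± 0.28 and -0.80 ± 0.36, all uncalled.

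SCARB1 values moved little, at -0.12 ± 0.12 in EV, -0.05 ± 0.12 in S5 and 0.20 ± 0.12 in S14. AXL had -0.16 ± 0.75, 0.05 ± 0.74 and -0.22 ± 0.75. MARCO had 0.01 ± 0.78, 0.02 ± 0.81 and 1.62 ± 0.89 (adjusted p of 1, 1 and 0.38). For AXL and MARCO the standard errors were wider than those of any other member except LYVE1 in S14. The 3 differences between lines in their response called 0 of 10 members and 0.0% of all genes. At an unadjusted p under 0.05 they held 3 members for S14 against EV (4.55% of all genes), 2 for S14 against S5 (3.52%) and 0 for S5 against EV (0.269%), and DESeq2 called 0 of the 10.

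**Figure D3:**
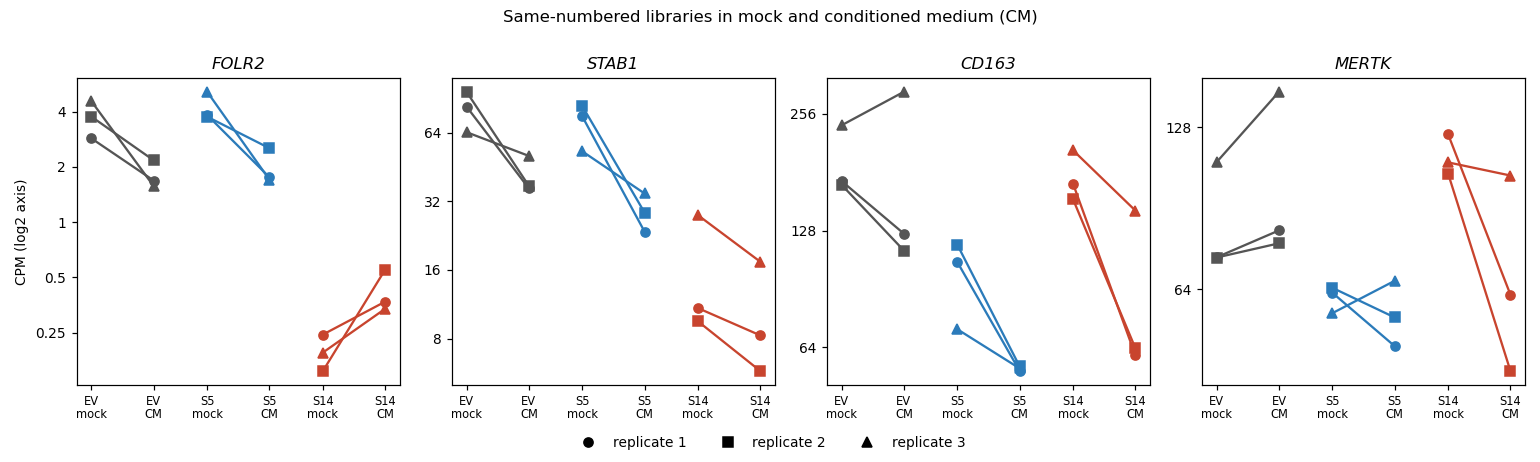
CPM on a log2 axis of FOLR2, STAB1, CD163 and MERTK in mock medium and conditioned medium (CM), with a line joining the same-numbered libraries of each cell line. The 3 S14 pairs of FOLR2 rise from 0.154 to 0.244 CPM to 0.337 to 0.552 CPM, whereas the EV and S5 pairs fall. S14 replicate 1 held 5 FOLR2 counts in both media. In CD163 and MERTK the S14 pair of replicate 3 falls less than those of replicates 1 and 2.

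Replicate 3 differed from replicates 1 and 2 by gene rather than evenly. Its AXL level was 0.113 to 0.607 times the mean of replicates 1 and 2, lower in 6 of 6 groups. SCARB1 was lower in 6 of 6 groups, at 0.807 to 0.963 times, and MSR1 in 5 of 6, at 0.266 to 1.06 times. MARCO was 5.51 times higher in EV mock and 7.68 times higher in EV conditioned medium, but 0.412 to 1.27 times in the other 4 groups. CD163 in conditioned medium was 2.44 times higher in EV, 2.31 times in S14 and 1.00 times in S5. STAB1 was 2.72 and 2.48 times higher in S14 mock and conditioned medium.

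Leaving out replicate 3 of every group, a choice made with that library's behaviour known, changed the number of members called in conditioned against mock medium. It was then 3 in EV (STAB1 -1.31, MSR1 -0.75 and CD163 -0.53), where 3.17% of all genes were called. It was 4 in S5 (LYVE1 -2.32, STAB1 -1.63, MSR1 -1.03 and CD163 -1.01), against 7.06% of all genes. In S14 it was 6, with CD163 at -1.43, MERTK at -1.15, MSR1 at -0.79, STAB1 at -0.63, AXL at -0.36 and MARCO at 1.92, against 45.2% of all genes. Between the lines, replicates 1 and 2 alone gave 9 members for S14 against EV in mock medium (55.6% of all genes) and 8 in conditioned medium (43.9%). They gave 9 for S14 against S5 in mock medium (54.8%) and 5 in conditioned medium (42.5%). For S5 against EV they gave 2 in mock medium, AXL at 0.66 and CD163 at -0.61 (1.97% of all genes), and 4 in conditioned medium, AXL at 0.91, CD163 at -1.09, MERTK at -0.59 and STAB1 at -0.51 (2.18%). For the response of S14 minus EV they gave 6 (24.3%), for S14 minus S5 5 (21.9%) and for S5 minus EV 0 (0.0%). What sets replicate 3 apart was not tested.

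**Figure D4:**
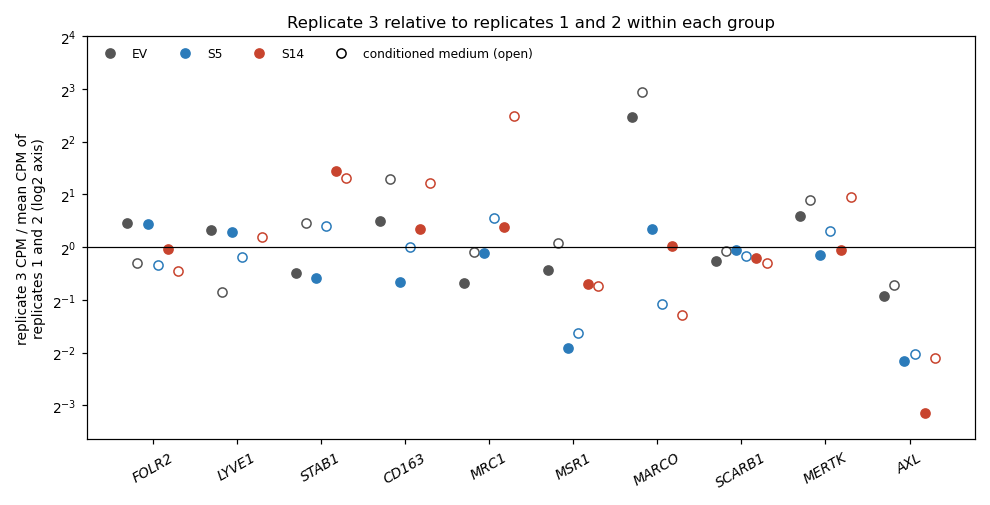
CPM of replicate 3 divided by the mean CPM of replicates 1 and 2, on a log2 axis, for each gene and group. Filled points are mock medium and open points conditioned medium, and the horizontal line marks equality. AXL lies below the line in all 6 groups and MARCO lies far above it in the EV groups, at 5.51 and 7.68.

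Genes with the most similar pattern were found by the root mean square difference of centred log2 CPM over the 18 libraries, which share lines and media, among about 10224 genes whose highest group mean was at least 10 CPM. SCARB1 was closest to ENTPD6 (0.0867) and MSR1 to MTSS1 (0.179). MERTK was closest to INKA2 (0.227) and then SIGLEC7 (0.261), and AXL to GSDMB (0.290) and then MAF (0.299). CD163 was closest to GUCY1A2 (0.365) and then MERTK (0.416), another member. STAB1 was closest to SPTBN5 (0.385) and then NT5DC2 (0.437), MRC1 to NT5DC2 (0.407) and then SLC46A1 (0.439). NT5DC2 overlaps STAB1 exons on the other strand, and the strand setting of the counts is not stated. FOLR2 was closest to DEPTOR (0.477) and then CACNB4 (0.483). MARCO was closest to CD14 (0.781) and LYVE1 to LRRC4 (0.898), while FOLR2, which is below that level, was nearer to LYVE1 (0.836). Among the members themselves, after CD163 and MERTK the nearest pair was STAB1 and MRC1 (0.544), and the farthest was LYVE1 and AXL (1.98).

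Other genes of the same pathways were counted in lists chosen with earlier results of these data known, and medians are of log2 fold changes of S14 against EV in mock medium, where the median of all genes tested was -0.02 and, of all genes tested, 11.1% were called higher and 8.96% lower. Of 26 other scavenger and lectin receptors tested, 3 were higher and 4 lower (median -0.45). CD44, the main hyaluronan receptor of leukocytes, was higher by 1.88 ± 0.19 (adjusted p = 9.2e-06). VSIG4, a complement receptor of resident macrophages, was lower by -2.60 ± 0.38 (adjusted p = 0.00027), CD209 by -1.46 ± 0.24 and CD14 by -1.58 ± 0.33. Of 25 other resident macrophage markers, 0 were higher and 16 lower (median -1.77). VSIG4, CD209 and CD14 belong to this list as well and are counted in both, so the 2 lists are not separate evidence. The transglutaminase gene F13A1 was lower by -7.48 ± 0.58, the complement genes C1QA by -5.09 ± 0.42 and C1QC by -3.30 ± 0.37, and the lysophosphatidylserine receptor gene GPR34 by -5.16 ± 0.55. In conditioned medium 0 of these 25 were higher and 11 lower (median -1.14), where 7.44% of all genes were called higher and 3.70% lower.

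Of 9 partners of the TAM receptors tested, 1 was higher and 2 lower (median 0.09). The ligand genes GAS6 and PROS1 were lower in S14 mock, by -3.02 ± 0.53 (adjusted p = 0.00098) and -0.91 ± 0.28 (adjusted p = 0.030). LGALS3, a galectin described as a MERTK ligand, was higher by 2.22 ± 0.28 (adjusted p = 6.9e-05). In conditioned medium GAS6 was lower by -2.04 ± 0.51 (adjusted p = 0.015). Of 25 other genes of apoptotic cell uptake, 7 were higher and 5 lower (median -0.03), among them the integrin gene ITGB3 at 4.95 ± 0.50, CD300LB at 2.10 ± 0.28, ANXA1 at 1.82 ± 0.25 and the engulfment adaptor ELMO1 at -0.97 ± 0.16.

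Of 8 genes of receptor shedding, by which CD163, MERTK and AXL are cut from the surface, 2 were higher and 0 lower (median 0.79): TIMP3, an inhibitor of the sheddase ADAM17, at 4.07 ± 0.61, and RHBDF2, which carries ADAM17 to the surface, at 0.88 ± 0.18. Of 16 genes on the ligand side of CD163, LYVE1 and SCARB1, 3 were higher and 1 lower (median 0.45). The ferritin genes FTL and FTH1 were higher by 1.08 ± 0.18 and 1.54 ± 0.31, the haem oxygenase gene HMOX1 by 1.22 ± 0.37, and the iron exporter gene SLC40A1 was lower by -1.78 ± 0.41. SLC40A1 is also counted among the other resident macrophage markers. Of 19 transcription factors of resident macrophages, 6 were higher and 0 lower (median 0.53), with NR1H3 at 2.41 ± 0.24, CEBPB at 2.55 ± 0.32, BHLHE40 at 2.84 ± 0.43 and BHLHE41 at 1.82 ± 0.40.

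Within each line, conditioned against mock medium called 0 members of these 7 lists. The smallest p of the scavenger list belonged to VSIG4 in S14, at 1.57 ± 0.37 (adjusted p = 0.069). In EV and S5 the smallest p of the uptake list belonged to THBS1, a bridging protein of apoptotic cell uptake, at -2.73 ± 0.64 (adjusted p of 1) and -4.28 ± 0.72 (adjusted p = 0.20).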

How the data were processed

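RNA-seq libraries were made from 18 samples with an mRNA kit that keeps strand, per the labels' protocols. The deposited table held raw read counts per gene and TPM values for each library, from reads aligned with HISAT2 to GRCh38, per the submitters' processing notes; the HISAT2 version, counting program, annotation, strand setting and gene lengths are not stated there or in the labels. TPM values, as deposited, served only to compare levels between genes. Libraries were grouped by title, and totals ran from 15.0 to 26.05 M counts.

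Counts were scaled with TMM factors and filtered by edgeR's default filter by group, which kept 17851 of 60623 genes. A robust quasi-likelihood model with 1 mean per group was fitted to all 18 libraries (edgeR 4.0.16, limma 3.58.1, R 4.3.3), and 12 contrasts were tested with Benjamini-Hochberg adjustment over all genes tested in each and a threshold of 0.05. CPM is counts per 1 M after TMM scaling. Log2 fold changes carry standard errors derived from the F statistic. All 10 members were named in the comparisons, with up to 4 called genes of each of 7 lists by smallest p, or up to 2 uncalled ones. The script was tested on simulated data for S14 against EV in mock medium. A minimum share of recovered genes set at first was not met and was replaced by checks of bias and false calls after that was seen. Of 100 genes changed by a log2 fold change of 1 in size 26% were recovered, and of 100 changed by 2, 77%. An uncalled change near 1 is therefore not evidence of no change. Positions come from GENCODE 29, promoters from RefSeq. Intervals and floors (3 counts per library) cover counting error only, since reads are not independent molecules.

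The members, lists, motifs and tests were chosen with earlier results of these data known. Alternatives were RLE and upper-quartile scaling, no filter, a filter of 1 CPM in 3 libraries, DESeq2 1.42.0, a fit of the groups compared, replicates 1 and 2 alone, leaving out each library, and the replicate number as a block. Same-numbered libraries were set together by the replicate numbers in the titles, which do not state a pairing. Deviations from group means of same-numbered libraries correlated at 0.155 to 0.794 over 45 pairs (median 0.391). Libraries of different numbers were not compared in this way, so the correlations cannot show whether the libraries are paired.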

Additional observations from a re-analysis of the deposited data

Results flagged for a closer look

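FOLR2 CPM moved in opposite directions between lines when mock medium was replaced by conditioned medium. Each of the 3 same-numbered S14 pairs rose in CPM, and each of the 3 EV and the 3 S5 pairs fell. The difference in response was 2.11 between S14 and EV and 2.15 between S14 and S5 on the log2 scale. In the test of the difference neither was called (adjusted p = 0.83 and 0.98), and with replicates 1 and 2 alone both were, at 1.97 (adjusted p = 0.026) and 2.00 (adjusted p = 0.025). The S14 libraries behind it held 3 to 11 FOLR2 counts each, going from 5 to 5, 3 to 11 and 4 to 8 in replicates 1, 2 and 3. Replicate 1 thus rose in CPM at an unchanged count, with a scaled library size of 20.5 M in mock and 13.6 M in conditioned medium. MERTK fell in each of the 3 S14 pairs and rose in each of the 3 EV pairs. The difference in its response was -0.95 between S14 and EV and was not called (adjusted p of 1), and with replicates 1 and 2 alone it was -1.26 (adjusted p = 4.8e-06). Groups of 3 libraries are too small for a check of single outlying values.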

How the results depend on the processing

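Of 120 values (10 members in 12 comparisons), 19 were called, and none of these 19 changed sign under any alternative run. The number of members called for conditioned against mock medium was 0 in each line. With replicates 1 and 2 alone it was 3 in EV, 4 in S5 and 6 in S14, with the replicate block 2 in S14, and without 1 library 0 to 2 in S14, the 2 being without S14 conditioned medium replicate 3. For S14 against EV in mock medium it was 6, and 4 to 5 without 1 library. For S14 against EV in conditioned medium it was 4, with 8 in replicates 1 and 2 alone, 2 in the fit of the groups compared, where LYVE1 did not pass the count filter, and 2 to 6 without 1 library, lowest without S14 conditioned medium replicate 2. For S5 against EV it was 0 in both media, 2 and 4 in replicates 1 and 2 alone and 1 by DESeq2 in conditioned medium. For S14 against S5 in mock medium it was 6, 3 with no filter, and 3 to 5 without 1 library, with 3 when S5 mock replicate 1, 2 or 3 or S14 mock replicate 1 was left out. In conditioned medium it was 3, with 5 in replicates 1 and 2 alone, 1 with no filter, 1 in the fit of the groups compared and 1 to 3 without 1 library, with 1 when S5 replicate 2 or 3 or S14 replicate 1 or 2 was left out. The differences in response held 0, and in replicates 1 and 2 alone 6 for S14 minus EV and 5 for S14 minus S5. Shares of all genes called are given above only for the full fit, the replicate block and replicates 1 and 2 alone. For the other runs a changed count of members cannot be told apart from a change in calls over all genes. The cause of these shifts was not tested. The replicate block changed the call of CD163 and MERTK in S14 (conditioned medium), of CD163 for S14 against EV and of MSR1 for S14 against S5 in both media, and no other member's call.

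Signs changed for 33 values, none of them called, in 90 combinations of a value and an alternative, and the cause was not tested. In replicates 1 and 2 alone MARCO was -0.39 for conditioned against mock medium in EV (0.01 in the full fit), 0.75 for S14 against EV in conditioned medium (-1.25), and 0.27 and 1.07 for S5 against EV in mock and conditioned medium (-0.92 and -0.91). There AXL was 0.067 for S14 against S5 in mock medium, MERTK -0.031 for S14 against S5 in conditioned medium and MRC1 -0.029 for the response of S5 minus EV. With the block MARCO was -0.037 for conditioned against mock medium in EV, and AXL 0.021 for the response of S14 minus EV. With upper-quartile scaling the same values were -0.0063 (MARCO) and 0.0072 (AXL), and with no filter MARCO was -0.0011 for the response of S5 minus EV. The following ranges are over the refits that leave out 1 library. For conditioned against mock medium in EV they ran from -0.70 to 0.11 (CD163), -1.70 to 1.34 (MARCO), -0.11 to 0.49 (MERTK), -0.42 to 0.067 (AXL). For conditioned against mock medium in S5 they ran from -0.16 to 0.31 (MARCO), -0.092 to 0.012 (SCARB1), -0.20 to 0.0034 (MERTK), -0.38 to 0.48 (AXL). For conditioned against mock medium in S14 they ran from -1.21 to 0.046 (STAB1), -0.73 to 0.21 (AXL). For S14 against EV in mock medium they ran from -0.26 to 0.079 (CD163). For S14 against EV in conditioned medium they ran from -1.69 to 0.46 (MARCO). For S5 against EV in mock medium they ran from -0.61 to 0.10 (MSR1), -1.36 to 0.40 (MARCO). For S5 against EV in conditioned medium they ran from -0.063 to 0.29 (FOLR2), -1.36 to 0.79 (MARCO), -0.014 to 0.085 (SCARB1). For S14 against S5 in mock medium they ran from -0.44 to 0.50 (AXL). For S14 against S5 in conditioned medium they ran from -0.10 to 0.54 (MERTK), -0.69 to 0.15 (AXL). For the response of S14 minus EV they ran from -0.23 to 1.02 (STAB1), -1.35 to 0.33 (MRC1), -0.37 to 0.037 (MSR1), -0.57 to 0.37 (AXL). For the response of S5 minus EV they ran from -0.25 to 0.13 (FOLR2), -0.15 to 0.27 (MRC1), -1.31 to 1.73 (MARCO), -0.58 to 0.019 (MERTK), -0.21 to 0.65 (AXL). For the response of S14 minus S5 they ran from -0.70 to 0.039 (CD163), -1.41 to 0.28 (MRC1), -0.15 to 0.62 (MSR1), -0.78 to 0.16 (AXL).

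Depth limits LYVE1, MRC1 and FOLR2, which held 0 to 11 counts in each S14 library, and the fitted LYVE1 fold change in S14 mock medium has no lower limit.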

Other observations

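The lists were also counted for S14 in conditioned medium, where 11.1% of all genes were called against EV and 13.8% against S5. Against EV, 2 of the 26 other scavenger and lectin receptors were higher and 2 lower, among them CD44 at 1.57 ± 0.18 (adjusted p = 6.0e-05), CD163L1 at -0.78 ± 0.18 (adjusted p = 0.011) and the chemokine and lipoprotein receptor gene CXCL16 at 1.99 ± 0.61 (adjusted p = 0.047). Of the 8 shedding genes 3 were higher and 0 lower against EV, TIMP3 at 3.94 ± 0.60, RHBDF2 at 1.12 ± 0.18 and RHBDF1 at 2.58 ± 0.57. Against S5 5 of the 8 were higher and 0 lower, including MMP14 at 1.14 ± 0.29 (adjusted p = 0.015). Of the 25 other uptake genes 7 were higher and 3 lower against S5, with ITGB3 at 6.17 ± 0.56 and TGM2, a transglutaminase that aids engulfment, at 3.91 ± 0.80 (adjusted p = 0.0039). SLC40A1, which exports iron, was lower in S14 than in S5 by -1.66 ± 0.41 (adjusted p = 0.012).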
